A study of Mus musculus with 6 samples.

Results

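The Runx family in these data comprises the loci of Runx1, Runx2 and Runx3, and of Cbfb, which encodes their shared partner subunit. Members were all distinct accessible regions (peaks) that the authors' annotated table assigns to 1 of these gene symbols: 118 of 92864 peaks, of which 67 belonged to Runx1, 16 to Runx2, 30 to Runx3 and 5 to Cbfb. ATAC-seq, in which the Tn5 transposase inserts sequencing adapters into open chromatin, was performed on 2 kinds of myeloid cells sorted from brain tumours grown orthotopically from SB28, an isogenic mouse glioma line. Microglia (MG), brain macrophages that settle before birth, were gated as F4/80+ CD11b+ CD45lo with LY6C low or absent, no LY6G and CD49d low or absent (3 libraries). Bone marrow derived macrophages (BMDM), which enter the tumour from the blood, were gated as F4/80+ CD11b+ CD45+ with the same LY6C and LY6G limits but high CD49d (3 libraries). All mice were wild type (WT) and all libraries came from tumour tissue, so that neither group stands for cells of a healthy brain. The labels give neither the age of the mice nor an animal for each library. The p-values therefore reflect the scatter of 3 libraries per group, and that scatter may be technical.

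Runx proteins bind DNA through the Runt domain, and Cbfb, which does not bind DNA itself, raises their affinity. Runx1 is needed for the formation of blood stem cells and for myeloid differentiation, Runx2 is the master regulator of bone formation, and Runx3 acts in cytotoxic T cells, natural killer cells, dendritic cells and neurons of the dorsal root ganglia. Each of the 3 Runx genes is transcribed from a distal promoter, P1, and a proximal promoter, P2, which give proteins with different amino termini. Cbfb has no such pair of promoters.

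The distal promoters share a Runx binding motif in tandem, and these sequences are shown because accessibility differed between the 3 sites that hold it. The start site windows of RefSeq (assembly GRCm38.p6, 250 bases before to 50 after each start) were searched for AACCACA on both strands, a letter sequence of the Runx consensus. Each line gives 30 bases 5′ to 3′ on the strand of the gene, with the tandem motif in capitals; the Runx1 site lies at chr16:92826025-92826054 on the minus strand, the Runx2 site at chr17:44814583-44814612 on the minus strand and the Runx3 site at chr4:135120503-135120532 on the plus strand.
Runx1 P1: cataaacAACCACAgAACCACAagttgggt
Runx2 P1: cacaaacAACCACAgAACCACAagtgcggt
Runx3 P1: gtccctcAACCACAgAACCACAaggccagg
Counting the start base itself, the tandem began at base 28 in Runx1 and at base 23 in Runx2, where it lies in the transcribed leader. In Runx3 it began at -135. Of all 32851 windows, 1731 (5.27%) held AACCACA at least once on either strand, 67 (0.204%) held it more than once and 4 (0.0122%) held the tandem with a single base between the copies. Besides the 3 Runx genes, the remaining window was that of Gm16225, a long noncoding RNA on the other strand of the Runx3 P1 region, which overlaps the same site. The P2 windows of Runx1 and Runx3 and the window of Cbfb held no copy of these letters.

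The 250 bases before the P1 start and before the P2 start of Runx3 are shown because the P1 peak passed the test between the groups and the P2 peak did not (values below). They lie on the plus strand at chr4:135120395-135120644 and chr4:135152295-135152544, with the motif in capitals.
Runx3 P1: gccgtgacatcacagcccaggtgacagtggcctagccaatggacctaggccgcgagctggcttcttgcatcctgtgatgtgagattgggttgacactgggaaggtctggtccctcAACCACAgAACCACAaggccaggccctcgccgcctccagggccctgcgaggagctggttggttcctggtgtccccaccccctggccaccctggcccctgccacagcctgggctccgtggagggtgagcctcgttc
Runx3 P2: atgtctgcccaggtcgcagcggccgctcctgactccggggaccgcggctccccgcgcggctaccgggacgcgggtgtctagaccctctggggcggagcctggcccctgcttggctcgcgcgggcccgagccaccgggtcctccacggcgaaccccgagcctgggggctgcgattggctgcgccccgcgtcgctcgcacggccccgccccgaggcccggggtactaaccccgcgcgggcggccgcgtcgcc
The P1 stretch held 8 CpG dinucleotides at 65.2% GC and the P2 stretch 38 at 78.8% GC, against medians of 6 and 52.4% over all windows. Runx1 had the same order, with 2 CpG before P1 and 27 before P2, while the P1 stretch of Runx2 held 0.

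Reads in peaks numbered 12531808 to 23601865 per MG library and 4910448 to 19727511 per BMDM library, and the median peak held 20 to 90 reads. Values below are normalized counts, reads scaled by the authors' size factors, on which a count of 3 reads equals between 1.64 (MG 2) and 5.95 (BMDM 1), a detection limit for counting error alone. Across 87944 peaks the log2 values of MG 1 were closest to those of MG 3 (correlation 0.892) and nearer to the BMDM libraries (0.839 to 0.860) than to MG 2 (0.756). MG 2 correlated at 0.694 to 0.787 with BMDM. Of the microglial marker genes, Sall1 had 2178, 686 and 1184 normalized counts in MG against 440, 231 and 355 in BMDM, while Tmem119 overlapped between the groups (1117 to 1346 in MG, 888 to 1389 in BMDM), so open chromatin at these markers was present in both sorts. Differences are log2, BMDM minus MG, on log2(normalized count + 1), a scale that understates the change of low peaks, and are given relative to the median feature of the fit, which lay at -0.14 for peaks, -0.27 for genes and -0.31 for promoters. The tests were made on the unshifted differences. In such sorted bulk samples, a smaller share of cells with an open site and less openness per cell cannot be told apart.

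The comparison of BMDM with MG addresses, per the series text, gene regulation and function of the 2 macrophage populations. Summed over the peaks within 100 kb of a start site, Runx2 was higher in BMDM and the other 3 genes did not pass the test (limma, Benjamini-Hochberg adjusted p under 0.05 over 18246 genes; of all genes, 2.14% passed upward in BMDM and 3.51% passed upward in MG). Runx2, over 12 peaks, had 826, 737 and 794 normalized counts in the MG libraries, against 1652, 2011 and 1335 in the BMDM libraries (always in the order of replicates 1, 2 and 3). Every BMDM library lay above every MG library, which held for 6.87% of all genes in this direction. The log2 difference was 1.33 ± 0.28 (SE; adjusted p = 0.0383, limma). The call was lost without MG 2 (adjusted p = 0.109), MG 3 (0.168), BMDM 1 (0.121) or BMDM 2 (0.227), each with a limma difference of 1.25 to 1.42, and held without MG 1 (1.29, adjusted p = 0.0236). With voom weights on whole reads it was also lost (adjusted p = 0.0651).

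Runx3, over 30 peaks, had 4650, 3803 and 3901 normalized counts in MG and 8931, 8787 and 5268 in BMDM. Its groups did not overlap either, but BMDM 3 lay well below the other BMDM libraries. The difference of 1.13 ± 0.41 did not pass (limma adjusted p = 0.231), though it did when scaled by library totals (adjusted p = 0.0156) or by loess (adjusted p = 0.0198). Runx1, over 51 peaks, had 7662, 4370 and 5192 in MG against 7740, 8187 and 5007 in BMDM, and the groups overlapped (0.56 ± 0.43, limma adjusted p = 0.726). MG 1 was as high as BMDM 1 at Runx1, and BMDM 3 as low as MG 3. Cbfb, over 5 peaks, had 1548, 1099 and 1109 in MG and 1032, 951 and 667 in BMDM. Here each MG library lay above each BMDM library, as at 21.5% of genes, and the difference of -0.24 ± 0.29 did not pass (limma adjusted p = 0.330). Summed accessibility placed Runx1 28th and Runx3 41st among the 18246 genes; these sums grow with the number of peaks and are no measure of expression.

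**Figure D1:**
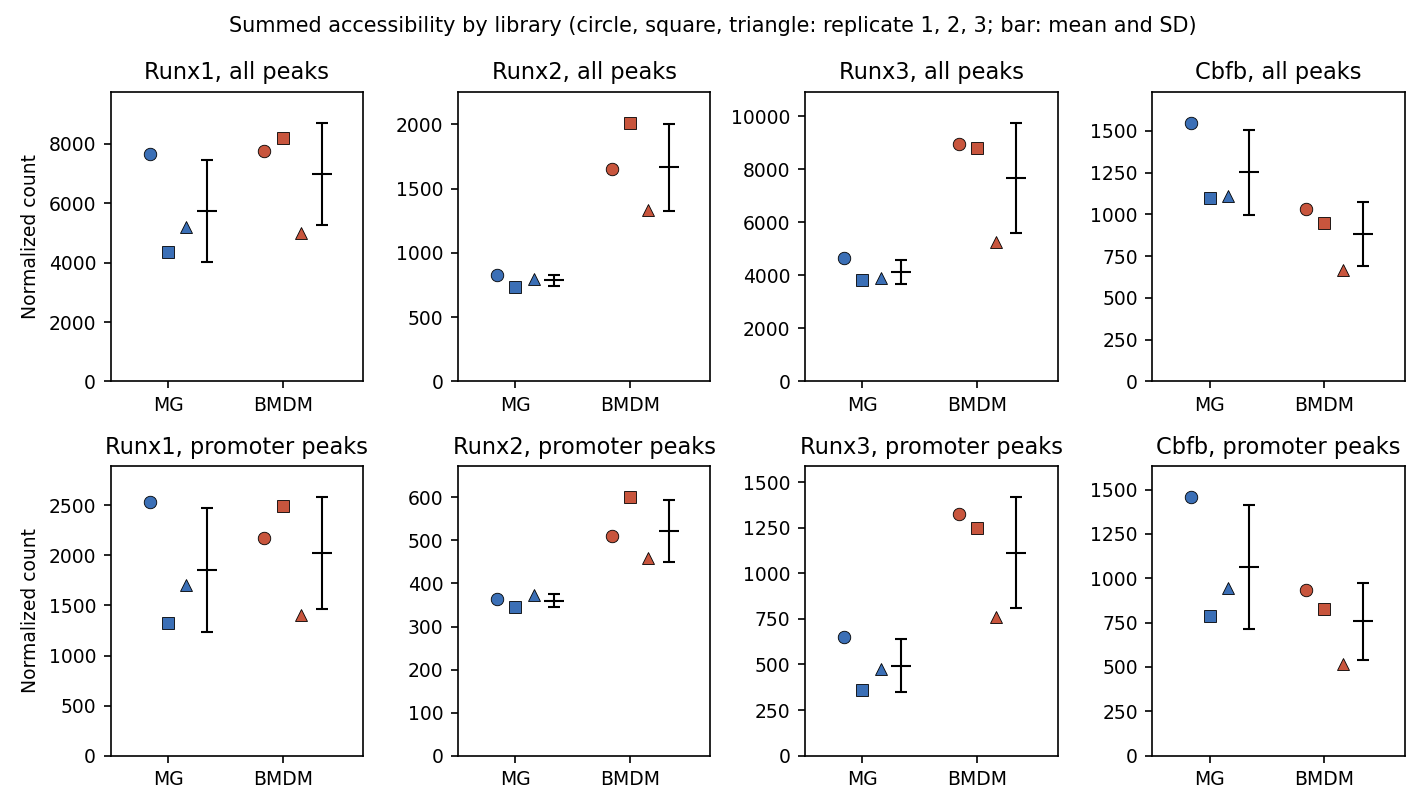
Normalized count (y axis, from 0) in each MG (blue) and BMDM (red) library, summed over all peaks up to 100 kb from a start (upper row) and over promoter peaks (lower row) of each gene, with the mean and SD of 3 libraries beside the points. Runx2 and Runx3 separate the groups in both rows, Runx1 overlaps in both, and Cbfb is the gene with MG above BMDM in the upper row.

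At promoters, Runx3 was the member that rose. Its 3 promoter peaks together had 648, 359 and 473 normalized counts in MG and 1325, 1248 and 763 in BMDM, with no overlap (5.36% of promoters separated the groups this way). The difference of 1.49 ± 0.34 passed (limma adjusted p = 0.00861 over 15249 promoters, of which 2.75% passed upward and 9.16% downward). Promoter p-values rest nearly wholly on the variance shared across promoters, and the call was lost without MG 2 (adjusted p = 0.204), MG 3 (0.141), BMDM 1 (0.0782) or BMDM 2 (0.102, limma), and with voom (0.0528). The 2 Runx2 promoter peaks had 364, 344 and 372 in MG and 510, 600 and 458 in BMDM, which did not overlap, but the difference of 0.84 ± 0.32 did not pass (limma adjusted p = 0.331). Runx1 promoters (0.45, adjusted p = 0.880, limma) and the Cbfb promoter (-0.17, adjusted p = 0.442, limma) overlapped between the groups.

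Of the 118 member peaks, 116 had a mean of at least 10 normalized counts and were tested; the 2 left out belong to Runx1. In BMDM 21 peaks were higher (limma, adjusted over all peaks), 9 of 16 in Runx2, 8 of 30 in Runx3, 4 of 65 in Runx1 and 0 of 5 in Cbfb, against 5.33% of all peaks tested. The Runx1 share lies near that background. No member peak was called higher in MG (1.54% of all peaks), where 2, both of Runx1, had an unadjusted limma p under 0.05 (9.58% of all peaks). Among 6262 genes with at least 5 tested peaks, 38 had a larger share of peaks called higher in BMDM than Runx2, 368 a larger share than Runx3 and 1774 a larger share than Runx1. Without MG 1 the count of 21 became 44, with 4 called higher in MG; that fit called 10640 of its 88800 peaks higher in BMDM and 11306 (12.7%) higher in MG, and the shared variance took nearly all the weight. No peak at all was called without MG 3, without BMDM 1 or without BMDM 2. In these fits 36, 36 and 33 member peaks had an unadjusted limma p under 0.05 and were higher in BMDM. The same held for 11.1%, 11.8% and 10.2% of all peaks. With all libraries it held for 48 member peaks (15.3% of all peaks). Voom weights on whole reads likewise gave no call at any peak of the genome.

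All 16 Runx2 peaks and all 30 Runx3 peaks lay above the median peak, with median differences of 1.68 and 1.25. Runx1 had 47 of 65 above it, with a median of 0.37, and Cbfb 2 of 5, with a median of -0.22. In every BMDM library accessibility exceeded every MG library at 15 Runx2, 20 Runx3 and 17 Runx1 peaks and at 0 Cbfb peaks (17.0% of all peaks), while the reverse order held at 2 Runx1 peaks (12.9% of all peaks). The authors' deposited table called 35 member peaks higher in BMDM and 0 lower at its own adjusted p under 0.05, of which 11 were in Runx2, 15 in Runx3 and 9 in Runx1; it called 9.06% of all peaks higher and 5.38% lower.

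**Figure D2:**
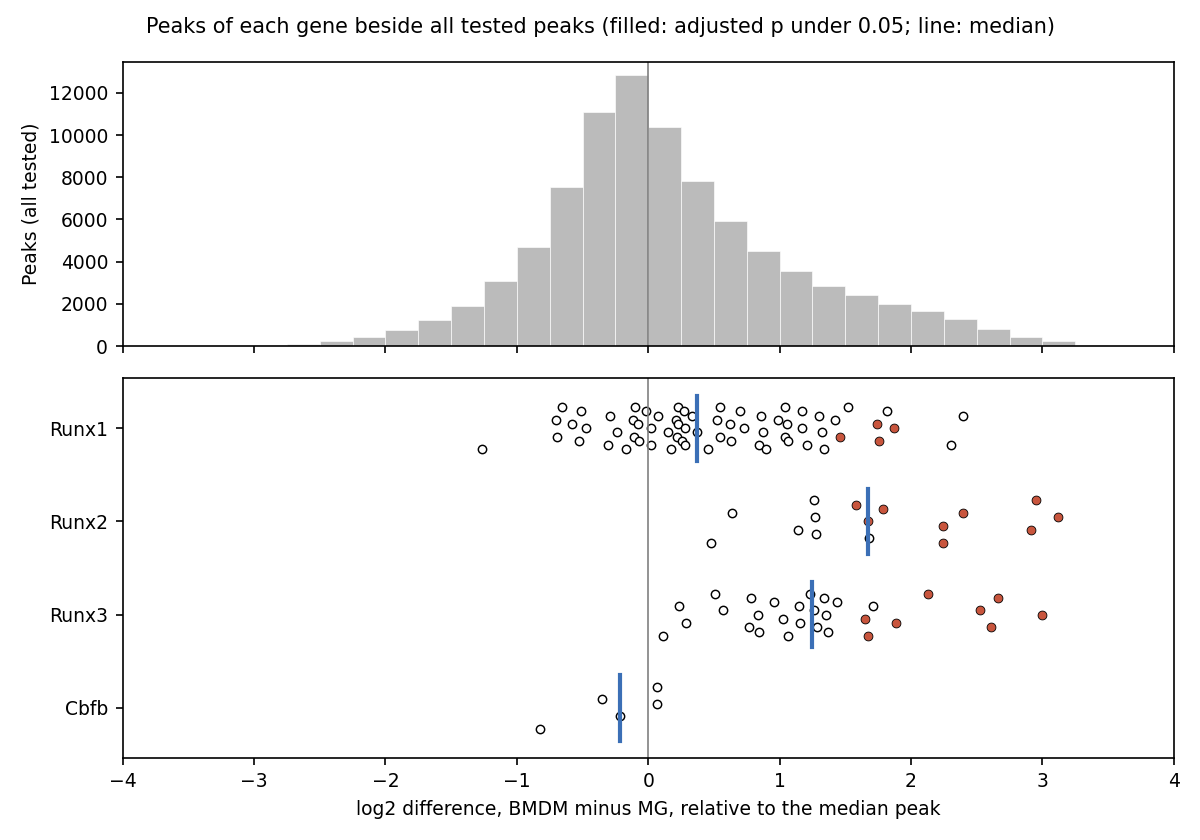
The log2 difference of BMDM minus MG relative to the median peak (x axis): a histogram of all tested peaks above, and below it 1 point per tested peak of each gene, filled in red where adjusted p was under 0.05, with the gene's median as a blue line. The peaks of Runx2 and Runx3 lie wholly to the right of 0, those of Runx1 straddle it and those of Cbfb lie near or left of it.

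Runx1, the family member most used in blood stem and myeloid cells, had overlapping groups at both of its start sites. The P1 start peak (chr16:92824968-92826737) had 917, 398 and 550 normalized counts in MG and 851, 927 and 493 in BMDM, with overlap (0.45 ± 0.40, limma adjusted p = 0.669). The P2 start peak (chr16:92696620-92699007), the highest of the gene with a mean of 1004, had 1458, 804 and 1019 in MG against 958, 1133 and 650 in BMDM (-0.12 ± 0.36, limma adjusted p = 0.713). MG 1 was the highest MG library at both starts.

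The 4 Runx1 peaks that passed as higher in BMDM flanked P1 on both sides. A promoter-flank peak 2.02 kb downstream of the RefSeq P1 start (chr16:92823543-92824556) had 159, 123 and 134 in MG and 365, 430 and 266 in BMDM (1.46 ± 0.31, limma adjusted p = 0.0361). An intronic peak at chr16:92818485-92819041, 7.31 kb downstream, rose from 57.9, 39.9 and 65.1 to 173, 182 and 141 (1.74 ± 0.32, limma adjusted p = 0.0280). The groups overlapped at neither peak. Another intronic peak, 48.0 kb downstream (chr16:92777909-92778226), had 13.5, 13.7 and 13.6 in MG and 53.6, 58.3 and 34.4 in BMDM (1.87 ± 0.39, limma adjusted p = 0.0349). The last lay 26.4 kb upstream between genes (chr16:92852246-92852632), with 18.2, 25.7 and 22.4 in MG against 101, 73.2 and 45.3 in BMDM (1.76 ± 0.39, limma adjusted p = 0.0400). All 4 lay among the 22 tested Runx1 peaks within 50 kb of P1, where the median difference was 0.71; of the 43 tested peaks farther away, which include P2, none was called higher and the median was 0.22. This distance was chosen after the values were seen, and the difference between the zones was not tested.

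Peaks of Runx1 differed from one another in the F test of limma's diffSplice (adjusted p = 0.000193), which 17.5% of genes passed. DiffSplice pools the error over all peaks of a gene and treats them as independent, although they share the same 6 libraries. Its p-values, here and below, may therefore be too small. Against the other peaks of the gene, 3 of 65 stood apart (4.31% of all peaks did). The one with the largest difference, 71.0 kb upstream of P1 (chr16:92896895-92897248), had 3.97, 10.4 and 2.92 in MG and 29.8, 29.1 and 25.4 in BMDM. It rose relative to its gene by 1.91 (diffSplice adjusted p = 0.0163) but missed the threshold in the peak test (2.397 ± 0.613, limma adjusted p = 0.0542). The one with the smallest, in an intron 32.1 kb downstream of P1 (chr16:92793860-92794145), had 68.2, 5.47 and 46.6 in MG and 7.93, 6.48 and 16.3 in BMDM (-1.27 ± 0.84, limma adjusted p = 0.343). MG 1 and MG 3 were high there, while MG 2 was as low as BMDM. Another, in an intron 99.0 kb downstream (chr16:92726963-92727192), held 1 read in MG 1 and is near the limit of detection.

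Runx2, best known from osteoblasts, separated the groups at 15 of its 16 peaks. Its inner start peak (chr17:44734231-44736715), 79.2 kb downstream of the RefSeq P1 start, was the highest and the least changed, with 325, 314 and 344 normalized counts in MG and 399, 475 and 380 in BMDM. The groups did not overlap but lay close together (0.48 ± 0.28, limma adjusted p = 0.492), and relative to the other Runx2 peaks it was lower in BMDM by the diffSplice test (-1.40, adjusted p = 0.0405). A flanking peak 1245 bases upstream of the inner start (chr17:44737893-44738453) had 38.9, 30.1 and 28.2 in MG and 111, 126 and 77.9 in BMDM (1.79 ± 0.33, limma adjusted p = 0.0287).

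Of the 13 intronic Runx2 peaks, 8 were called higher in BMDM, and all 13 separated the groups. A peak 245 kb downstream of P1 (chr17:44568928-44569885) rose from 11.1, 23.5 and 26.2 in MG to 107, 183 and 130 in BMDM (2.92 ± 0.41, limma adjusted p = 0.0260). Its neighbour 257 kb downstream (chr17:44557194-44557582) went from 2.38, 10.4 and 11.7 to 43.6, 60.2 and 61.6 (2.95 ± 0.57, limma adjusted p = 0.0287). Neither peak showed any overlap of the groups. The largest of the called intronic peaks (chr17:44702327-44703349) had 49.2, 42.1 and 57.3 in MG and 216, 276 and 167 in BMDM (2.24 ± 0.32, limma adjusted p = 0.0260). Another (chr17:44725174-44725420) had 15.1, 8.20 and 6.80 against 55.5, 40.8 and 38.04 (2.24 ± 0.46, limma adjusted p = 0.0325). MG libraries varied more at chr17:44727774-44728241, with 7.93, 33.3 and 15.5, against 69.4, 104 and 74.3 in BMDM (2.39 ± 0.49, limma adjusted p = 0.0326).

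The remaining calls were smaller in size or in depth. The Runx2 call with the largest p (chr17:44663633-44664504) had 42.8, 80.9 and 56.4 in MG and 222, 223 and 99.6 in BMDM (1.67 ± 0.40, limma adjusted p = 0.0499). An intronic peak at chr17:44690340-44690845 had 25.4, 22.4 and 30.1 in MG and 69.4, 78.3 and 68.8 in BMDM (1.58 ± 0.32, limma adjusted p = 0.0339), with little spread in either group. The largest fitted difference of the gene, 3.12 ± 0.76 (limma adjusted p = 0.0458), was at chr17:44697131-44697339 and rests on 3, 5 and 2 reads in MG and 6, 61 and 19 in BMDM. It depends on the pseudocount, since a pseudocount of 5 gave 2.20. That peak also rose relative to the other Runx2 peaks (1.42, diffSplice adjusted p = 0.0371).

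The RefSeq P1 window of Runx2, which holds the tandem motif printed above, overlapped no peak of the table and no peak of any of the 6 library lists. The P1 windows of Runx1 and Runx3 were called open in all 6 lists, as were the Cbfb window and the P2 windows of Runx1 and Runx3. Inside the first Runx2 intron, 2 peaks that the table assigns to the neighbouring gene Supt3, a subunit of the SAGA coactivator complex, were not counted as members. The first (chr17:44766362-44766777) had 3.17, 6.56 and 0.97 in MG and 33.7, 44.7 and 28.99 in BMDM, and the second (chr17:44771002-44771261) had 2.38, 4.37 and 2.92 against 17.9, 31.1 and 10.9. Both separated the groups in the direction of the Runx2 peaks, as did 17.0% of all peaks. Some of their values in MG 1 and MG 3 lie at or below 3 reads, which equal 2.38 and 2.92 normalized counts there.

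**Figure D3:**
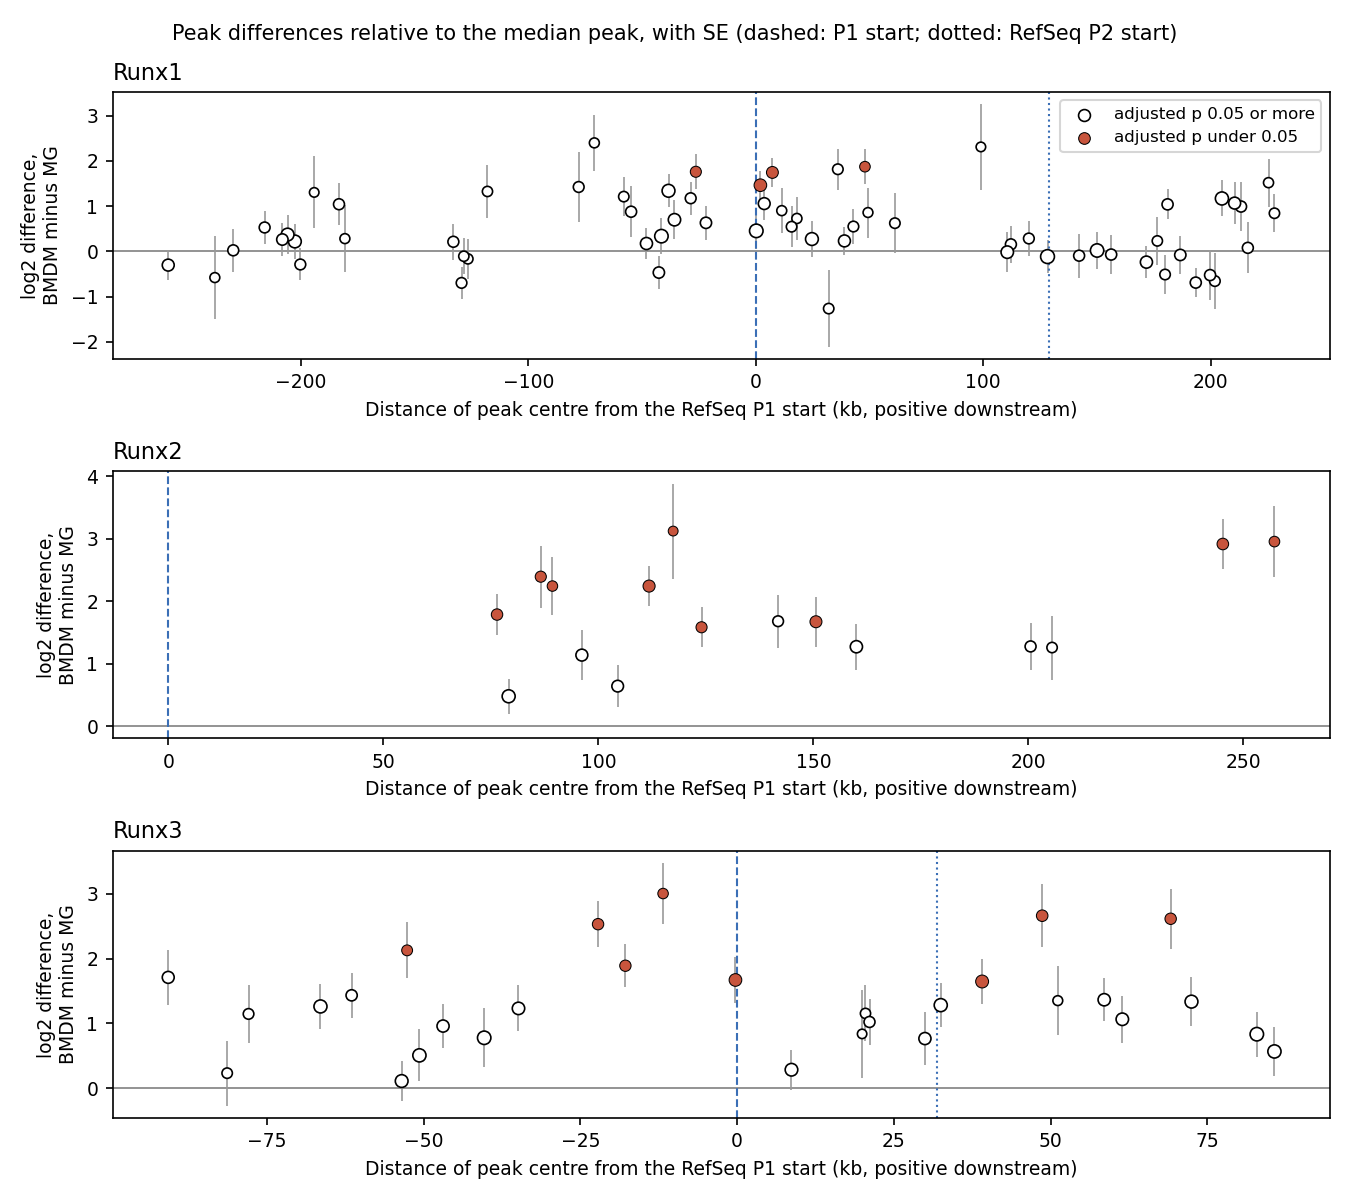
Difference of each tested peak relative to the median peak, with its SE (y axis, log2, BMDM minus MG), against the distance of its centre from the RefSeq P1 start (x axis, kb); larger points have higher mean counts and red points had an adjusted p under 0.05. The called Runx1 peaks lie within 50 kb of the dashed P1 line, those of Runx2 lie 76 to 257 kb downstream of it and those of Runx3 lie on both sides of it.

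Runx3, a factor of cytotoxic lymphocytes and dendritic cells, differed at its distal promoter. The P1 start peak (chr4:135119936-135120817), which contains the tandem motif, had 139, 104 and 140 normalized counts in MG and 454, 483 and 228 in BMDM (1.67 ± 0.36, limma adjusted p = 0.0370). BMDM 3 was the lowest of its group and still above every MG library. The P2 start peak (chr4:135152045-135154190) had 344, 191 and 226 in MG and 647, 614 and 411 in BMDM, again without overlap, and missed the threshold (1.28 ± 0.34, limma adjusted p = 0.0698). A flanking peak 1630 bases upstream of P2 (chr4:135150327-135150866) overlapped (0.77 ± 0.40, limma adjusted p = 0.373). Neither start peak differed from the other Runx3 peaks (0.37 and -0.03, diffSplice adjusted p = 0.718 and 0.986), so the P1 call is not shown to be a larger change than that at P2.

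Upstream of P1, 4 intergenic peaks were called higher in BMDM. The nearest, 11.8 kb from the start (chr4:135108537-135109131), had 5.55, 6.01 and 5.83 in MG and 33.7, 60.2 and 56.2 in BMDM, the largest difference of the gene (3.00 ± 0.47, limma adjusted p = 0.0260). A peak 22.2 kb upstream (chr4:135098009-135098917) had 15.9, 23.0 and 22.4 against 83.3, 115 and 139 (2.53 ± 0.35, limma adjusted p = 0.0260). MG libraries agreed closely at both sites, but the nearest peak rests on 7, 11 and 6 reads in MG and 17, 93 and 31 in BMDM. Alternative settings gave that peak a difference of 2.44 to 3.24. Both peaks also rose relative to the rest of the gene (1.75 and 1.26, diffSplice adjusted p = 0.00328 and 0.0447). The other called upstream peaks, 17.8 kb (chr4:135102387-135103267; 1.89, adjusted p = 0.0268) and 52.6 kb (chr4:135067851-135068185; 2.13, adjusted p = 0.0324, limma) from P1, had 23.8 to 30.6 and 12.7 to 16.9 in MG against 81.3 to 127 and 37.7 to 97.8 in BMDM.

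Next to the latter lay the peak with the smallest difference of the locus (chr4:135066764-135067533), at 307, 242 and 271 in MG and 305, 313 and 201 in BMDM (0.11 ± 0.31, limma adjusted p = 0.975). The groups overlapped there, and the peak was lower relative to the rest of Runx3 (-1.24, diffSplice adjusted p = 0.0488). The highest Runx3 peak, between genes 82.9 kb downstream of P1 (chr4:135203045-135204007), had 615, 378 and 464 in MG against 990, 844 and 554 in BMDM, which overlapped (0.84 ± 0.35, limma adjusted p = 0.245).

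Downstream, a broad intronic peak at chr4:135158802-135160631 had 163, 196 and 147 in MG and 530, 653 and 317 in BMDM (1.65 ± 0.34, limma adjusted p = 0.0348). A smaller one in a later intron (chr4:135168989-135169604) had 9.52, 29.5 and 34.0 against 93.2, 161 and 139 (2.66 ± 0.48, limma adjusted p = 0.0268). Beyond the gene, the peak at chr4:135189471-135190106 had 12.7, 20.2 and 21.4 in MG and 204, 69.9 and 76.1 in BMDM, with BMDM 1 far above its group (2.61 ± 0.46, limma adjusted p = 0.0263). The last pair also rose relative to the rest of Runx3 (1.39 and 1.34, diffSplice adjusted p = 0.0231 and 0.0294), so that 5 of 30 peaks stood apart from the gene. In the F test, peaks differed within Runx3 (adjusted p = 4.5e-05) and Runx2 (adjusted p = 0.0019, limma).

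**Figure D4:**
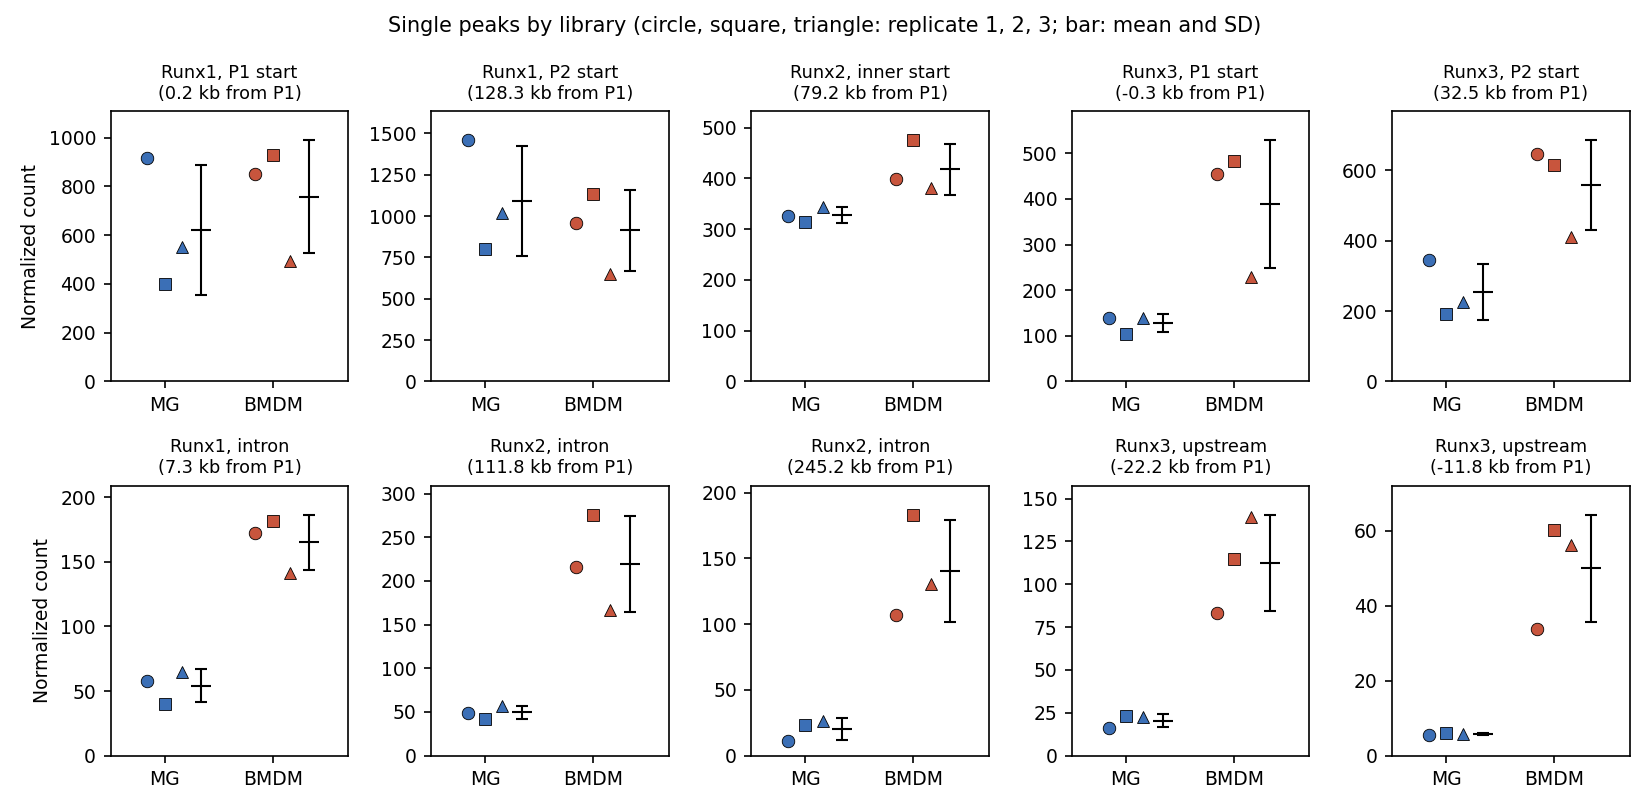
Normalized count (y axis, from 0) of 10 peaks in each MG (blue) and BMDM (red) library, with the mean and SD of 3 libraries beside the points; the upper row holds the start site peaks and the lower row peaks called higher in BMDM away from starts. The Runx1 start peaks overlap between the groups, and the lower panels leave a gap between every MG and every BMDM library.

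Small peaks made up most of the calls at Runx2 and Runx3. Below a mean of 100 normalized counts, 6 of 13 Runx3 peaks and 7 of 11 Runx2 peaks were called higher in BMDM. At or above it, 2 of 17 and 2 of 5 were. Runx1 had the other order, with 2 of 47 peaks called below it and 2 of 18 at or above it. Over all peaks the same split gave 6.46% and 2.64%, so peak size moved with the calls across the genome too. This split was chosen after the values were seen.

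Cbfb, the non-DNA-binding subunit, showed no peak that passed the test in either direction, and none with an unadjusted limma p under 0.05. Its promoter peak (chr8:105170157-105172247) had 1457, 790 and 947 in MG and 934, 824 and 515 in BMDM, with overlap (-0.35 ± 0.37, limma adjusted p = 0.463). MG 1 was again the highest library. The other 4 Cbfb peaks had means far below it and differences from -0.83 to 0.07, and its 5 peaks did not differ from one another in the F test (limma adjusted p = 0.950).

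Library by library, 62, 75 and 62 of the 118 member peaks overlapped a peak of the MG 1, 2 and 3 lists, and 50, 82 and 32 a peak of the BMDM 1, 2 and 3 lists. Of all 92864 peaks, 51.7%, 73.7% and 53.8% did so in MG and 34.7%, 54.5% and 17.9% in BMDM. The lists differed in size, holding 50217, 70739 and 52566 peaks in MG and 33982, 52631 and 17741 in BMDM. In all 6 lists 27 member peaks were called, 22.9% of 118 against 16.8% of all peaks: 13 of Runx3, 10 of Runx1, 3 of Runx2 and 1 of Cbfb. A call in some BMDM list and in no MG list was found for 10 Runx1, 6 Runx2 and 5 Runx3 peaks, and the opposite for 21 Runx1, 3 Cbfb, 1 Runx3 and 0 Runx2 peaks. These are 17.8% and 21.2% of the member peaks, where 9.86% of all peaks were called in BMDM lists alone and 34.9% in MG lists alone.

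Across the 6 libraries, the gene whose summed accessibility was most like that of Runx1 was Tagap, a GTPase-activating protein of T cells (Pearson r = 1.00 on log2 sums, the first of 8451 genes compared), followed by Pik3cg and Vps37b. Runx2 was most like Cd69, an early activation marker of leukocytes (r = 0.993), Ifng, which encodes interferon gamma (r = 0.990), and Dglucy (r = 0.989). Runx3 was most like Emilin2 (r = 0.999), Fxyd5 (r = 0.997) and Asprv1 (r = 0.997), and Cbfb most like Brk1, Pias3 and Ndrg3 (r = 0.999 to 1.00). These correlations describe 6 points that share library depth and group. Between members, Runx2 and Runx3 correlated at 0.950, Runx1 and Runx3 at 0.767 and Runx2 and Cbfb at -0.52.

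Genes that work with Runx factors mostly did not pass the test. Of 38 cofactors and partner transcription factors, all of them tested, 1 rose in BMDM and 1 fell, beside 2.14% and 3.51% of all genes. Both counts lie near those shares, and the median difference was 0.02. Erg, an Ets factor of blood stem cells and endothelium, rose from 408, 186 and 324 normalized counts in MG to 887, 699 and 618 in BMDM (1.59, limma adjusted p = 0.0237). Tal1, a bHLH factor that forms complexes with Runx1, fell from 1763, 930 and 1155 to 609, 644 and 562 (-0.76, limma adjusted p = 0.0494). Runx1t1, the corepressor known from its fusion with Runx1 in leukaemia, had a difference of -1.02 (limma adjusted p = 0.0646), and Tbx21, the T-bet factor of type 1 lymphocytes, had 0.61 (limma adjusted p = 0.486).

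Textbook target genes of Runx factors in myeloid and lymphoid cells passed upward at 5 of 26 tested genes and downward at 0. Their median was 0.70, beside 2.14% of all genes called upward and a median of 0 by construction. The gene lists were chosen with earlier results of these data known, so such counts are a description and no independent test of Runx activity. The 5 were Il2rb (2.24, limma adjusted p = 0.0104), which encodes a receptor chain for interleukins 2 and 15, the cytotoxic granule genes Gzmb and Prf1, Ifng, and the integrin gene Itgal. Gzmb had 99.2, 82.5 and 98.2 in MG and 184, 437 and 274 in BMDM (1.85, limma adjusted p = 0.0147). At Ifng the counts were 343, 296 and 319 against 940, 950 and 645 (1.65, limma adjusted p = 0.0101). The lowest differences of that list were -0.27 for Socs3 and -0.19 for Cebpa, neither of which passed. Myeloid genes of the list that did not pass included Csf1r (0.35, limma adjusted p = 0.920) and Spi1 (0.21, limma adjusted p = 0.941). Itgam (0.63, limma adjusted p = 0.538) and Mpo (1.24, limma adjusted p = 0.115) did not pass either. Csf2ra, Elane, Ctsg and Cd8a had no tested value. Over all genes, 2.14% passed upward in BMDM and 3.51% downward. Among bone and matrix targets of Runx2, 2 of 14 tested rose, 1 fell and the median was 0.18. Those that rose were Tnfsf11, which encodes the osteoclast factor RANKL (2.09, limma adjusted p = 0.0119), and Mmp13, a collagenase (2.06, adjusted p = 0.0122). Col1a1, a collagen gene, fell (-0.87, limma adjusted p = 0.0339), and Tnfrsf11b, the decoy receptor of RANKL, had -1.13 (adjusted p = 0.277).

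Markers of lymphoid cells, which also use Runx3, moved with these results. The marker counts below stand beside 2.14% of all genes called higher in BMDM and 3.51% called lower. Of 10 tested T, NK and B cell markers, Nkg7 (2.43, limma adjusted p = 0.00478) and Cd2 (1.40, adjusted p = 0.0270) rose and 0 fell, with a median of 1.15; Cd3g, Trac and Cd79a had no tested value, and no tested marker was at 0. Their summed counts overlapped, from 4780 to 6101 in MG and from 4071 to 6835 in BMDM. Of 7 tested neutrophil markers 1 rose (Ly6g) with a median of 1.23, and their sums ran from 1184 to 1580 in MG and from 1475 to 2442 in BMDM. Monocyte and macrophage markers had 6 of 10 higher in BMDM, Itga4, the gene of the CD49d sort marker, among them (1.48, limma adjusted p = 0.0336). Of 10 microglial markers 3 were lower in BMDM and 0 higher, of 9 dendritic cell markers none passed in either direction, and of 7 endothelial and mural markers 1 was lower. Neural and glial markers had 5 of 13 lower in BMDM and 1 higher, with a median of -0.85. Their sums were 7875 to 13707 in MG against 5654 to 7038 in BMDM. Among those lower, Olig1 (269, 3587 and 1783 in MG) and Sox10 (65.1, 1102 and 518) had MG 1 within the BMDM range. Pdgfra, Snap25 and Nova1 were higher in every MG library than in any BMDM library. The part of such cells in the Runx differences was not tested.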

How the data were processed

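ATAC-seq libraries of 3 MG and 3 BMDM samples were grouped by their labels. The submitters' processing notes list DESeq2 1.36.0, ChIPseeker 1.32.1, MACS2 2.1.1.20160309, Bowtie2 2.4.1, cutadapt 1.8.1 and build mm10. How the transposase shift and duplicates were handled is not given in the sources used here. As deposited by the authors, the data are 1 table of all peaks, with variance-stabilized log2 values per library, log2 fold changes, a mean normalized signal and p-values, and 1 peak list per library. Its second set of fold changes, per gene, is used under the closing observations only. The deposited lists carry a fold enrichment, a −log10 p and a −log10 q from the authors' caller, of which only the −log10 q served, as a filter. No sample matched 8 further columns of the table, which were left out.

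Of 93084 lines, 155 repeated a peak and 65 distinct peaks had no annotation, leaving 92864. Inverting the transformation gave normalized counts whose means differed from the deposited means by at most 2.4e-06 of their value, and whole reads (within 0.02 read) for 100% of values. PCR reads are not independent molecules.

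The design assumed normalized values, so limma 3.58.1 (R 4.3.3) with a trend was fitted to log2(normalized count + 1) for features with a mean of at least 10, without covariates, with Benjamini-Hochberg adjustment over all features and a threshold of 0.05; diffSplice tested peaks against the rest of their gene. The fit was tested on simulated data. Alternatives covered scaling, filter, pseudocount, voom on whole reads, the replicate block, the window of the gene sums, the promoter class and each library left out.

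Named peaks are those at start sites, the highest, the largest and smallest difference, and those passing the threshold (at most 8 per gene by p); list genes are the 2 largest and 2 smallest differences, and like genes the top 3 correlations among genes above the median mean. A few others (list genes that passed, markers, the Runx2 call with the largest p) were named after their values were seen. The members and lists were chosen with earlier results of these data known. Symbols, coordinates and annotation classes are the deposited table's; start sites and sequences are from RefSeq (GRCm38.p6), in which all 4 genes matched.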

Additional observations from a re-analysis of the deposited data

How the results depend on the processing

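The count of 21 member peaks higher in BMDM was 36 with library totals, 32 with TMM factors and 34 with loess normalization. These fits called 7.87%, 7.99% and 7.90% of all peaks higher in BMDM, against 5.33%. With voom the count was 0, and no peak was called genome-wide (lowest adjusted p = 0.0505, voom). There, 50 member peaks were higher in BMDM at an unadjusted voom p under 0.05, as were 15.8% of all peaks. The count ran from 0 to 44 with 1 library left out, and the count higher in MG from 0 to 4. The count of 10 peaks that differ from their gene was 5 at a mean of at least 50, 4 with voom and 0 to 12 with 1 library left out. Over all peaks, the diffSplice calls moved as well. They numbered 3598 in the main fit, 1742 at that mean, 2348 with voom and 425 to 9089 with 1 library left out. The Runx2 sum did not pass with voom (1.31, adjusted p = 0.0651) and ranged from 1.25 to 1.42 with 1 library left out, its adjusted p from 0.0224 to 0.227. Runx3 sums passed with library totals (1.13, adjusted p = 0.0156) and loess normalization (0.81, adjusted p = 0.0198). The Runx2 promoters passed with library totals (0.84, adjusted p = 0.0439) and loess (0.94, adjusted p = 0.0118). Runx3 promoters did not pass with voom (1.46, adjusted p = 0.0528) and ranged from 1.325 to 1.597 with 1 library left out. Counted only where at least 50% of a member peak was covered, 12 peaks were in all 6 lists, against 27. No gene or promoter difference of the 4 genes changed sign in any alternative run. The cause of these changes was not tested, except that a library left out leaves fewer samples. Relative to the median peak, an alternative chosen after seeing the data, 29 member peaks were called higher in BMDM, as were 7.73% of all peaks.

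Whether the replicate numbers pair the libraries is not settled by these values. Same-numbered MG and BMDM libraries deviated together at 0.44, -0.06 and 0.36. For 2 of 3 MG libraries, the BMDM library of the same number was the best match. With the replicate block 35 member peaks were called higher in BMDM, where 10.5% of all peaks were called so and 5.93% higher in MG. The Runx2 sum (adjusted p = 0.000613) and Runx3 promoters (adjusted p = 0.0006) still passed. Depth limits the smallest peaks: at the shallowest libraries 3 reads correspond to 5.43 and 5.95 normalized counts.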

Other observations

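The authors' deposited table holds a second set of log2 fold changes, 1 value per gene, whose assay is not given in the sources used here. It called 700 of 12813 genes higher (5.46%) and 518 lower at the table's adjusted p under 0.05. In that set, per the authors' deposited table, Runx3 had a log2 fold change of 3.82 ± 0.36 (SE, adjusted p = 5.79e-22) and Runx2 of 2.37 ± 0.58 (adjusted p = 0.0017), both called higher. Runx1 had -0.59 ± 0.55 (adjusted p = 0.623) and Cbfb 0.74 ± 0.35 (adjusted p = 0.197) in the same deposited table, and neither was called. The 2 genes called in it are those whose peaks all lay above the median peak in the accessibility data. Which groups the second set compares, and in which direction, is not stated in the table.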
